A study of Mus musculus with 45 samples.

Results

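Of the 22904 genes counted in mouse pancreatic islets, 103 belonged to oxidative phosphorylation by their symbols. Those were the symbols starting with Nduf, Uqcr or Atp5, with Cox followed by 4 to 8, Sdha to Sdhd, and the mitochondrial names starting with mt-Nd, mt-Co, mt-Cytb or mt-Atp. Nuclear DNA encodes 90 of the members and mitochondrial DNA encodes 13. By role, the nuclear members were 36 subunits of complex I, 7 assembly factors of complex I, 4 subunits of complex II, 8 of complex III, 11 of complex IV and 15 of complex V, 5 isoforms of restricted expression, the supercomplex factor Cox7a2l, the pair Atp5s and Atp5sl, and the pseudogene symbol Atp5l2-ps. A further symbol that ended in -ps and a digit was left out by the rule. Of the 103, 102 passed the filter on low counts, and Atp5l2-ps did not. Cox7b2, Cox8b and Cox8c were not analysed here.

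Islets were taken from females and males of 3 inbred strains: C57BL/6J, the strain of the mouse reference genome, CAST/EiJ, which descends from wild mice, and NZO/HlLtJ, which is prone to obesity and diabetes. Mice were labelled wild type and, from 6 weeks of age, ate either a control diet with 10% fat or a high-fat, high-sugar diet with 44% fat, both labelled as carrying fiber. Tissue was collected at 15 weeks, and polyadenylated RNA was sequenced. The 12 groups of strain, sex and diet held 4 samples each, except CAST/EiJ control males and NZO/HlLtJ males on either diet, which held 3. The labels do not say how many animals gave a sample, so the p-values here reflect only how these 45 samples varied, which may be technical in part.

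Oxidative phosphorylation is the process by which mitochondria turn the energy of nutrients into ATP. Complexes I and II pass electrons to ubiquinone, complex III passes them to cytochrome c, complex IV passes them to oxygen, and complex V, the ATP synthase, uses the proton gradient that the others build. All complexes but complex II contain subunits from both genomes, so their assembly needs transcripts made in the nucleus and in the mitochondrion. In the beta cells of the islet, ATP made this way closes potassium channels of the plasma membrane and triggers insulin release.

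Total counts per sample lay between 57203765 and 109950221, with a mean of 83542121. The number in each sample's label fell into 3 separate runs, consecutive but for gaps in the first, called number ranges here, and all fits carried them as a term. The islet label held in all samples: the 19 beta cell genes on the list, among them Ins1, Ins2 and Iapp, summed to between 56573 and 193058 CPM per library, where CPM is the count scaled to a common library total. Exocrine tissue came with the islets in unequal amounts, since 30 acinar genes took between 0.0711% and 44.2% of a library's counts. The 4 libraries above 20% were C57BL/6J control female 4 at 26.6%, CAST/EiJ control female 4 at 44.2%, CAST/EiJ high-fat male 2 at 21.5% and NZO/HlLtJ high-fat male 3 at 21.4%. Results were fitted with and without these 4 libraries.

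Several members share their sequence with copies elsewhere in the genome, which bears on what their counts mean. Copies that were themselves counted were found for 9 mitochondrial genes, on chromosomes 1, 2 and 13, by comparing annotated transcripts (GENCODE M21, build GRCm38). Pseudogenes on chromosome 4 that share part of the sequence of mt-Cytb, mt-Nd5 and mt-Nd6 were not among the genes counted. The block on chromosome 1 holds Gm28661 (chr1:24614885-24615565, minus strand), whose 681 bases match mt-Co2 (chrM:7013-7696) with 0 mismatches. It also holds Gm10925 (chr1:24613974-24614651), whose 678 bases match mt-Atp6 with 0 mismatches, and Gm28438 (chr1:24612775-24613119), which differs from mt-Nd3 at 1 of 345 bases. A stretch of mt-Co2 is shown with the matching stretch of its exact copy on chromosome 1 and of its diverged copy Gm13341 on chromosome 2, because counts moved between mt-Co2 and the exact copy from strain to strain. Capitals mark the positions at which Gm13341 differs.

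mt-Co2: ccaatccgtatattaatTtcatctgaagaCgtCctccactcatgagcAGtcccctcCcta
Gm28661: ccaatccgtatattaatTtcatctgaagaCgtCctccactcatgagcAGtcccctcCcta
Gm13341: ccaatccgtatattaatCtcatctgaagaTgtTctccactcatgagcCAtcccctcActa

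These are bases 445 to 504 of mt-Co2, counted from 1 at the start of the gene and written 5′ to 3′. The 6 differences of Gm13341, with the base of mt-Co2 first, are T462C, C474T, C477T, A492C, G493A and C501A. The start of mt-Nd3 shows the single base that separates it from Gm28438, T3C, in capitals.

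mt-Nd3: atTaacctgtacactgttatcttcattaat
Gm28438: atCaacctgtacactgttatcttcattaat

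Among nuclear members the clearest case was Atp5g2, one of the genes for the c subunit that forms the rotor ring of the ATP synthase. Its processed pseudogene Gm10175 (chr7:23946646-23947290, minus strand) aligned with 0 mismatches over 499 of the 573 bases of the longest reading frame in the Atp5g2 transcripts. For 9 members at least 50% of the 31-base words of the transcript occur, on either strand, in another annotated transcript, and their counts are treated as uncertain: mt-Co1, mt-Co2, mt-Co3, mt-Atp6, mt-Nd3, mt-Nd4, mt-Nd4l, Ndufaf2 and Atp5l2-ps. Of the exon bases of Ndufaf2, 65.6% lie under B230220B15Rik on the opposite strand, and the sources used here do not give whether counting was by strand.

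The split of counts between gene and copy followed strain. In C57BL/6J, mt-Co2 held a median of 47.0% of the counts of the pair mt-Co2 and Gm28661, with a range over libraries of 44.6% to 49.3%. In NZO/HlLtJ the median was 49.0% and the range 44.6% to 51.1%. In CAST/EiJ the median was 0.282% and the range 0.151% to 7.33%. Atp5g2 went the other way: it held a median of 7.26% of the pair's counts in C57BL/6J, 6.96% in NZO/HlLtJ and 99.9% in CAST/EiJ. No CAST/EiJ library overlapped a library of the other strains in either pair. The pair mt-Atp6 and Gm10925 was split more evenly, at medians of 47.4%, 53.9% and 48.4% in C57BL/6J, CAST/EiJ and NZO/HlLtJ. Strain differences of mt-Co2 and Atp5g2 are given below for the gene alone and with the counts of copies added.

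**Figure D1:**
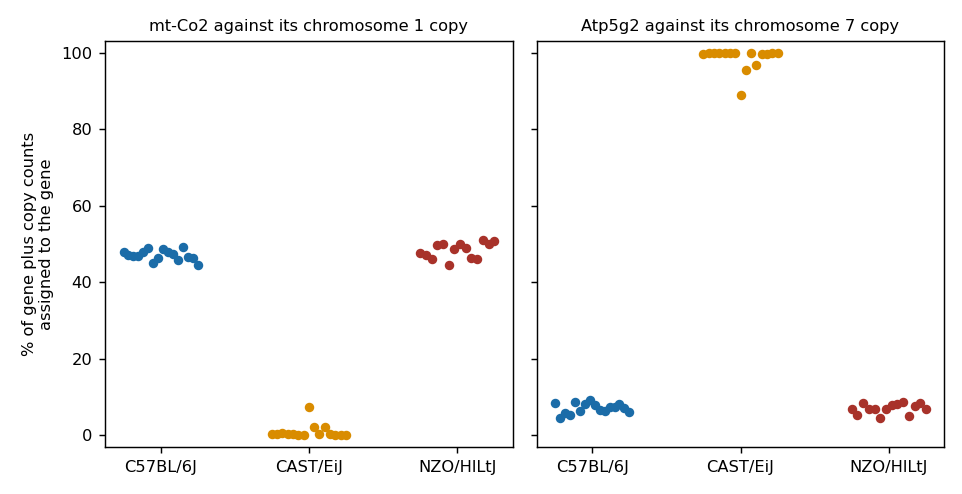
Percent of the counts of a gene and its copy that were assigned to the gene, by library and strain, for mt-Co2 with Gm28661 and for Atp5g2 with Gm10175. Points are libraries; the CAST/EiJ libraries lie near 0% for mt-Co2 (median 0.282%) and near 100% for Atp5g2 (median 99.9%), apart from both other strains.

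Per kilobase of exon, the mitochondrially encoded members were far above the nuclear ones. Their median level was 1212 CPM per kb against 22.4 CPM per kb for nuclear members, as means over all libraries. The mitochondrial median is the value of mt-Atp6, whose counts are split with its copy. mt-Co1, the catalytic core of complex IV, was highest at 4735 CPM per kb, followed by mt-Cytb, the core of complex III, at 3078 CPM per kb. mt-Nd3 was lowest at 258 CPM per kb, but held strain medians of 49.5% to 52.6% of the counts of the pair with Gm28438, and its place below mt-Atp8 at 409 CPM per kb cannot be read apart from that split. mt-Nd4 led the 7 complex I genes at 1497 CPM per kb.

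Among nuclear members, class medians of the level per length were 51.2 CPM per kb for complex IV, 49.5 for complex III, 34.9 for complex II, 32.2 for complex V, 20.3 for complex I and 3.5 for complex I assembly factors. In complex I, Ndufa1, a small accessory subunit of the membrane arm, was highest at 111 CPM per kb and Ndufab1, the mitochondrial acyl carrier protein, lowest at 4.48. Annotated exons cover 419 bases for Ndufa1, 6883 for Ndufab1 and 4912 for Atp5g1. Places per length thus depend on the annotation as well as on the counts, and the transcripts present in islets may be shorter. In complex II, the membrane anchor Sdhd stood at 55.3, the flavoprotein Sdha at 50.7, the other anchor Sdhc at 19.2 and the iron-sulfur subunit Sdhb at 17.6 CPM per kb. In complex III the range ran from Uqcr11 at 70.9 to the core protein Uqcrc1 at 19.7 CPM per kb. In complex IV it ran from Cox8a at 172 to Cox5a at 9.81 CPM per kb, and in complex V from Atp5a1, the alpha subunit of the catalytic head, at 154 to Atp5g1 at 13.9 CPM per kb. The mean of Atp5g2, 16.7 CPM per kb, pools strains that differ widely and its lowest library had 1.89, below the lowest of Atp5g1 at 7.76. Cox7a2l, which links complexes III and IV into supercomplexes, stood at 98.9 CPM per kb.

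Transcripts from the 2 genomes did not keep the same proportion across strains: islets of NZO/HlLtJ had less mitochondrially encoded RNA for their nuclear subunit RNA, most of all on the high-fat diet. The 13 mitochondrial members took between 1.08% and 3.14% of a library's counts, with a median of 2.15%, and the 90 nuclear members between 0.298% and 0.643%, with a median of 0.517%. These shares leave out the counts of copies, which in CAST/EiJ hold nearly all counts of the pair mt-Co2 and Gm28661. With copies added the mitochondrial share spanned 1.30% to 3.71%. In bulk tissue, fewer cells of a type and less RNA per cell cannot be told apart.

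The mitochondrial share was 2.03% ± 0.551 (SD, n = 4) in C57BL/6J control females, 2.40% ± 0.499 (n = 4) in control males, 2.29% ± 0.425 (n = 4) in high-fat females and 2.60% ± 0.452 (n = 4) in high-fat males. In CAST/EiJ the same groups stood at 1.96% ± 0.596 (n = 4), 2.53% ± 0.280 (n = 3), 2.53% ± 0.501 (n = 4) and 2.54% ± 0.741 (n = 4). In NZO/HlLtJ they stood at 1.96% ± 0.299 (n = 4), 2.16% ± 0.678 (n = 3), 1.53% ± 0.279 (n = 4) and 1.39% ± 0.259 (n = 3). The 7 NZO/HlLtJ high-fat libraries spanned 1.21% to 1.89% and overlapped the low end of the other strains, which reached down to 1.08% in the CAST/EiJ library with 44.2% acinar counts.

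The nuclear share moved the other way between strains. It was 0.602% ± 0.0409 (SD, n = 7) in NZO/HlLtJ on the control diet and 0.547% ± 0.0458 (n = 7) on the high-fat diet. C57BL/6J stood at 0.472% ± 0.0682 (n = 8) and 0.486% ± 0.0537 (n = 8), and CAST/EiJ at 0.506% ± 0.0976 (n = 7) and 0.512% ± 0.0493 (n = 8). On the control diet every NZO/HlLtJ library was above every C57BL/6J library and overlapped CAST/EiJ, and on the high-fat diet all strains overlapped.

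**Figure D2:**
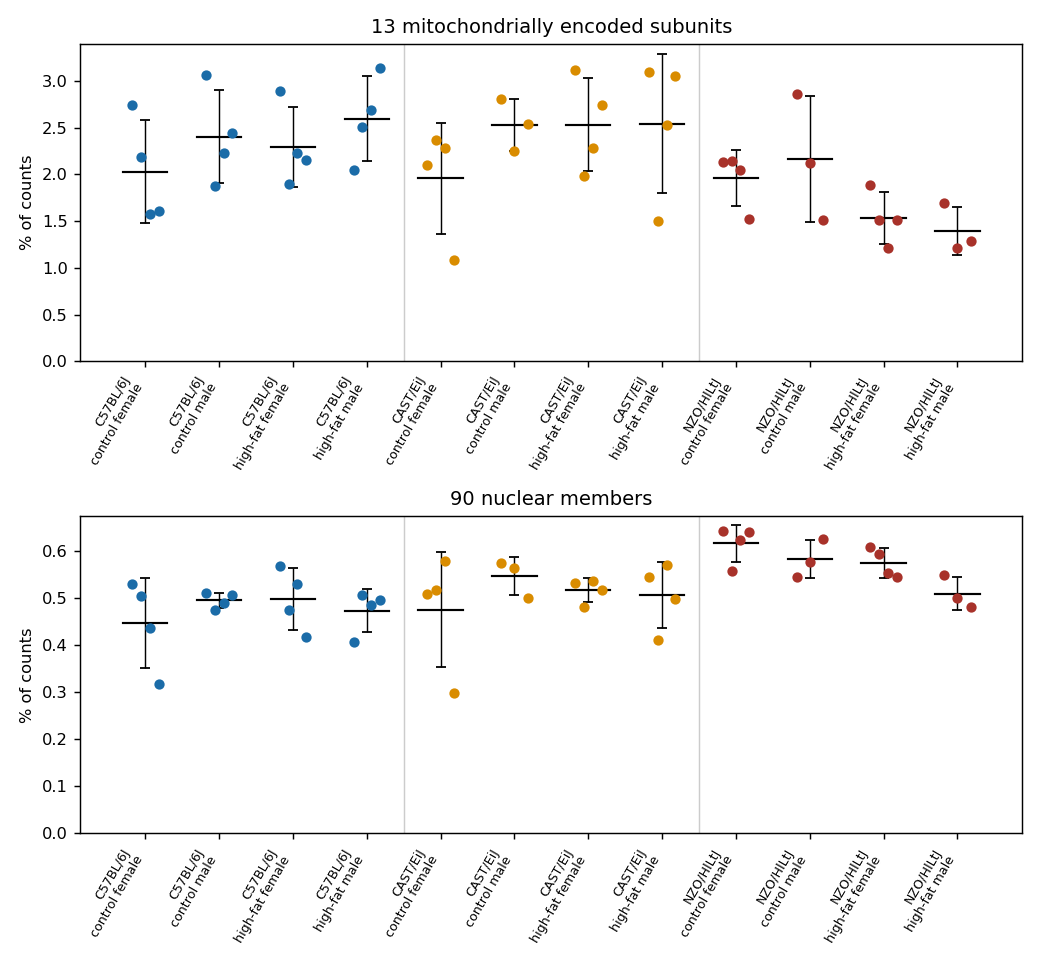
Percent of each library's counts in the 13 mitochondrially encoded members and in the 90 nuclear members, by strain, sex and diet, with mean and SD per group. Mitochondrial shares are lowest in the 7 NZO/HlLtJ high-fat libraries as a group (1.21% to 1.89%), while NZO/HlLtJ control libraries have nuclear shares of 0.546% to 0.643%.

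The log2 ratio of mitochondrial to nuclear counts put both shares together. It was 2.17 ± 0.244 (SD, n = 4), 2.25 ± 0.251 (n = 4), 2.19 ± 0.188 (n = 4) and 2.44 ± 0.164 (n = 4) in C57BL/6J control females, control males, high-fat females and high-fat males. In CAST/EiJ it was 2.02 ± 0.141 (n = 4), 2.21 ± 0.187 (n = 3), 2.27 ± 0.246 (n = 4) and 2.28 ± 0.340 (n = 4). In NZO/HlLtJ it was 1.66 ± 0.295 (n = 4), 1.85 ± 0.562 (n = 3), 1.40 ± 0.216 (n = 4) and 1.44 ± 0.178 (n = 3). All 7 NZO/HlLtJ high-fat libraries, at 1.13 to 1.64, lay below all 31 libraries of C57BL/6J and CAST/EiJ, at 1.84 to 2.66. The 7 NZO/HlLtJ control libraries spanned 1.24 to 2.39 and overlapped both. With the counts of copies added, the NZO/HlLtJ high-fat libraries lay at 1.32 to 1.84 and the libraries of C57BL/6J and CAST/EiJ at 2.06 to 2.88.

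Number range and acinar content were set beside this ratio. Within each number range and diet, the NZO/HlLtJ mean was the lowest of the 3 strains: on the high-fat diet it was 1.53, 1.34 and 1.30 in the 3 ranges, against 2.34, 2.12 and 2.50 in C57BL/6J and 2.53, 2.04 and 2.51 in CAST/EiJ. The difference between high-fat and control NZO/HlLtJ libraries was -0.49, -0.14 and -0.27 in the 3 ranges, against -0.14, 0.15 and 0.23 in C57BL/6J and 0.36, -0.06 and 0.45 in CAST/EiJ. In the second range NZO/HlLtJ had females on the control and males on the high-fat diet only, and in the third the reverse, so there sex and diet cannot be told apart. Acinar genes took 2.14% to 9.80% of counts in NZO/HlLtJ control and 4.06% to 21.4% in NZO/HlLtJ high-fat libraries. Among the 4 libraries above 20%, the NZO/HlLtJ one had a ratio of 1.42, and those of the other strains had 2.34, 1.86 and 1.87.

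**Figure D3:**
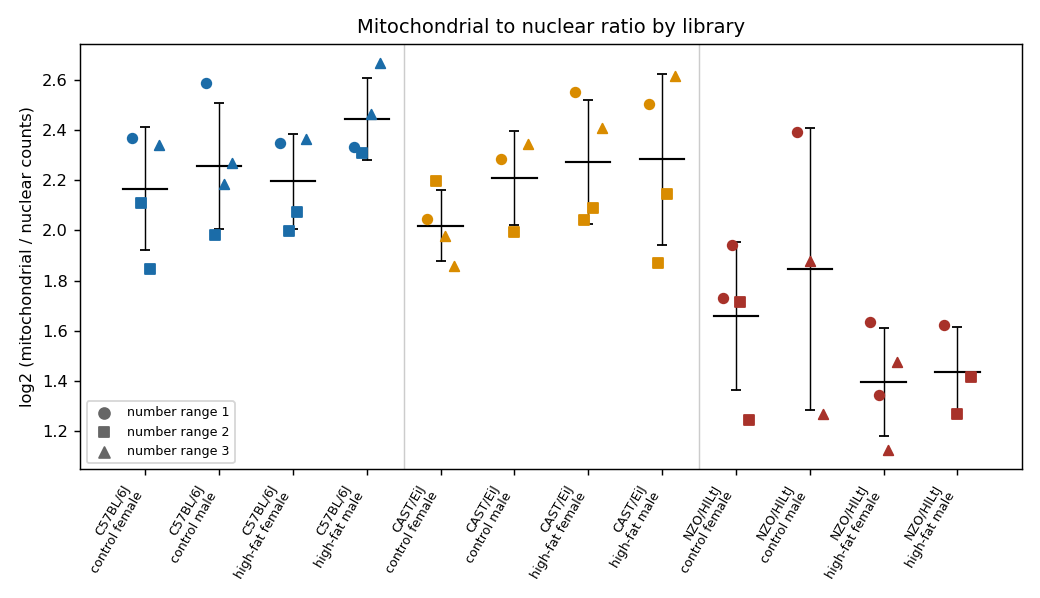
Log2 ratio of counts in the 13 mitochondrially encoded members to counts in the 90 nuclear members, by strain, sex and diet, with mean and SD, and marker shapes for the 3 number ranges. The NZO/HlLtJ high-fat libraries lie between 1.13 and 1.64, below every C57BL/6J and CAST/EiJ library.

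Comparison of NZO/HlLtJ with C57BL/6J, averaged over sexes, split the members by genome. With control feeding, edgeR called 8 of the 13 mitochondrial members lower and 0 higher, with 8 at an unadjusted p under 0.05. Of 89 nuclear members tested, 61 were higher and 4 lower. DESeq2 and limma on the deposited log2 values also called 0 mitochondrial members higher and 8 lower. Among all genes tested, 22.7% were called higher and 20.3% lower, so higher calls among nuclear members (68.5%) and lower calls among mitochondrial members (61.5%) were both above the background. The median log2 difference was -0.31 for mitochondrial members, 0.27 for nuclear members and -0.01 for all genes. On the high-fat diet 12 of 13 mitochondrial members were lower, and 60 nuclear members were higher and 9 lower, against 32.1% higher and 34.6% lower among all genes. The medians were -0.74, 0.29 and -0.05.

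The mitochondrial complex I genes carried most of the difference on the control diet. All 7 were lower in NZO/HlLtJ, with a median log2 difference of -0.48, and on the high-fat diet all 7 were lower again, with a median of -0.86. mt-Cytb, whose log2 difference was 0.01 ± 0.09 (SE) on the control diet (edgeR adjusted p = 0.96), was at -0.37 ± 0.09 on the high-fat diet (adjusted p = 0.00098). Of the 3 complex IV genes 0 were called on the control diet, also at an unadjusted p under 0.05, and mt-Co1 and mt-Co3 were lower on the high-fat diet, at -0.46 ± 0.11 (adjusted p = 0.00047) and -0.53 ± 0.12 (adjusted p = 0.00014). Of the 2 complex V genes, mt-Atp8 was lower on both diets. mt-Atp6 differed by -0.13 ± 0.10 on the control diet (adjusted p = 0.29) and was lower on the high-fat diet, at -0.44 ± 0.10 (adjusted p = 0.0003), but the change of its strain difference with diet did not pass (adjusted p = 0.12).

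mt-Nd2 encodes a proton-pumping subunit of the membrane arm of complex I. In NZO/HlLtJ it stood at 575, 629, 501 and 387 CPM in control females, 710.3, 587 and 434 in control males, 555, 517, 397 and 460.0 in high-fat females, and 434, 381 and 365 in high-fat males. In C57BL/6J it stood at 1139, 897, 853 and 1105 CPM in control females, 1236, 797, 938 and 1001 in control males, 1087, 959.8, 1059 and 1045 in high-fat females, and 1075, 1074, 997 and 1301 in high-fat males. In CAST/EiJ it stood at 1590.1, 1674, 1659 and 1484 CPM in control females, 2097, 1679.8 and 1666 in control males, 2035, 1403, 1669 and 1866 in high-fat females, and 2151, 1479, 1837 and 2419 in high-fat males. The strains did not overlap on either diet: every NZO/HlLtJ library was below every C57BL/6J library, and every CAST/EiJ library was above both. The log2 difference of NZO/HlLtJ from C57BL/6J was -0.91 ± 0.10 on the control diet (edgeR adjusted p = 1.7e-09) and -1.35 ± 0.10 on the high-fat diet (adjusted p = 9.8e-14). Against CAST/EiJ it was -1.68 ± 0.10 (adjusted p = 3.4e-16) and -2.14 ± 0.10 (adjusted p = 2.4e-19).

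mt-Nd1 encodes the subunit at the joint of the membrane and matrix arms, where ubiquinone binds. NZO/HlLtJ libraries held mt-Nd1 at 950.3, 1037, 840.0 and 707 CPM in control females, 1272, 1142 and 935 in control males, 1021, 968, 751 and 909 in high-fat females, and 942, 762 and 759.8 in high-fat males. C57BL/6J libraries held it at 1663, 1309.6, 1145 and 1539 CPM in control females, 1908, 1256, 1318 and 1397 in control males, 1708, 1310.2, 1445 and 1475 in high-fat females, and 1543, 1414, 1409.8 and 1854 in high-fat males. CAST/EiJ libraries held it at 1452, 1279, 1436 and 1528 CPM in control females, 1757, 1257 and 1255 in control males, 1839, 1149.6, 1304 and 1578 in high-fat females, and 1737, 1168, 1365 and 1618 in high-fat males. On the control diet 1 NZO/HlLtJ library, control male 1, reached into the C57BL/6J range, and on the high-fat diet all NZO/HlLtJ libraries were below both other strains. The log2 difference from C57BL/6J was -0.60 ± 0.08 on the control diet (edgeR adjusted p = 4.3e-07) and -0.86 ± 0.08 on the high-fat diet (adjusted p = 8.7e-11).

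mt-Nd3 encodes a small membrane subunit of complex I and is 1 of the uncertain members because of its copy on chromosome 1. NZO/HlLtJ samples had mt-Nd3 values of 89.4, 80.3, 61.8 and 65.8 CPM in control females, 76.2, 63.5 and 57.8 in control males, 76.1, 60.8, 51.3 and 58.1 in high-fat females, and 54, 68.4 and 61 in high-fat males. C57BL/6J samples had 149, 116, 109 and 164 CPM in control females, 148, 112, 123 and 116 in control males, 149.8, 149, 189 and 157 in high-fat females, and 138, 121, 113 and 126 in high-fat males. CAST/EiJ samples had 47.2, 62.6, 64 and 75 CPM in control females, 61.9, 55.4 and 58.8 in control males, 53.9, 55.9, 49.7 and 75.6 in high-fat females, and 67.4, 80.9, 53.4 and 70.7 in high-fat males. C57BL/6J lay above both other strains with no overlap, and NZO/HlLtJ and CAST/EiJ overlapped. Relative to C57BL/6J the control-diet difference in log2 units was -0.91 ± 0.11 for NZO/HlLtJ (edgeR adjusted p = 2.5e-08) and -1.10 ± 0.11 for CAST/EiJ (adjusted p = 1.5e-10). With the counts of copies added the latter was -1.23.

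mt-Nd5 encodes the distal proton pump of complex I. In NZO/HlLtJ the level of mt-Nd5 was 1787, 1981, 1735 and 1426 CPM in control females, 2546, 1895 and 1464 in control males, 1808, 1517, 1129 and 1521 in high-fat females, and 1398, 1222 and 1078 in high-fat males. In C57BL/6J the level was 2623, 2372, 2001 and 2558 CPM in control females, 3284, 2155, 2433 and 2494 in control males, 2903, 2267, 2548 and 2566 in high-fat females, and 2718, 2668, 2575 and 3336 in high-fat males. In CAST/EiJ the level was 2205, 2288, 2349 and 2391 CPM in control females, 2665, 2081 and 2085 in control males, 2808, 1951, 2331 and 2694 in high-fat females, and 2698, 2087, 2203 and 2867 in high-fat males. NZO/HlLtJ control male 1 was the only control library of that strain inside the C57BL/6J range, and the high-fat libraries were all below both other strains. The log2 difference from C57BL/6J was -0.48 ± 0.10 on the control diet (edgeR adjusted p = 0.0002) and -1.03 ± 0.10 on the high-fat diet (adjusted p = 1.2e-10).

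mt-Nd4, another pump, had medians of 2065 CPM in C57BL/6J and 1747 CPM in NZO/HlLtJ control libraries, and of 2121 and 1436 CPM on the high-fat diet. Its log2 difference was -0.31 ± 0.10 (edgeR adjusted p = 0.0091) and -0.68 ± 0.10 (adjusted p = 1.5e-07). mt-Nd4l, whose reading frame overlaps that of mt-Nd4, was lower, at -0.45 ± 0.09 (adjusted p = 0.00016) and -0.74 ± 0.09 (adjusted p = 2.1e-08). mt-Nd6, the only member on the other strand of mitochondrial DNA, was lower, at -0.22 ± 0.09 (adjusted p = 0.049) and -0.75 ± 0.09 (adjusted p = 1e-08). All 3 had overlapping control libraries. Whether counting was by strand is not known for mt-Nd6 either, so its count may hold RNA of the opposite strand. The control call of mt-Nd6 was lost on leaving out any of 27 of the 45 libraries, with -0.13 (adjusted p = 0.27) without NZO/HlLtJ control male 3, and that of mt-Nd4 was lost without the same library, at -0.24 (adjusted p = 0.055).

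mt-Atp8 and mt-Atp6 lie on 1 mitochondrial transcript with overlapping frames, and their products form part of the membrane sector of the ATP synthase. mt-Atp8 is 204 bases long, and 21.1% of its bases also belong to mt-Atp6. How reads of the overlap were assigned is not known, so the mt-Atp8 count is not a plain measure of that transcript. mt-Atp8 stood in NZO/HlLtJ at 82.4, 63.6, 48 and 31 CPM in control females, 46.9, 131 and 26.8 in control males, 39.3, 35.1, 34.6 and 49 in high-fat females, and 36.7, 22.7 and 23.1 in high-fat males. It stood in C57BL/6J at 114, 61.4, 87.5 and 75.2 CPM in control females, 117, 75.7, 95 and 78.5 in control males, 89.2, 75.7, 86.3 and 79.5 in high-fat females, and 85.6, 101, 77 and 148 in high-fat males. It stood in CAST/EiJ at 101, 104, 165 and 73.3 CPM in control females, 156, 97.7 and 97.3 in control males, 116, 58.9, 64 and 108 in high-fat females, and 140.3, 96.5, 75.3 and 182 in high-fat males. With control feeding NZO/HlLtJ control male 2 lay above every C57BL/6J control library while 4 of the other 6 lay below all of them, and on the high-fat diet NZO/HlLtJ lay below both strains with no overlap. Relative to C57BL/6J it differed on the log2 scale by -0.59 ± 0.22 on the control diet (edgeR adjusted p = 0.032) and -1.54 ± 0.23 on the high-fat diet (adjusted p = 5e-07). Without NZO/HlLtJ control male 2 the control value was -1.05 (adjusted p = 6.6e-05), without control male 3 it was -0.40 (adjusted p = 0.15), and the call was lost on leaving out any of 6 of the 45 libraries.

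mt-Atp6 stood in NZO/HlLtJ at 767, 737, 646 and 482 CPM in control females, 976, 722 and 519.6 in control males, 688, 623, 439 and 554 in high-fat females, and 638, 526 and 509 in high-fat males. For C57BL/6J it was 841, 619, 655 and 757 CPM in control females, 1035, 589, 732 and 656 in control males, 806, 638, 648 and 678 in high-fat females, and 698, 808, 723 and 919 in high-fat males. For CAST/EiJ it was 1063, 1188, 1146 and 1005 CPM in control females, 1180.5, 952 and 1035 in control males, 1217, 967, 985 and 1121 in high-fat females, and 1233, 1001, 1127 and 1293 in high-fat males. CAST/EiJ was highest, without overlap on the high-fat diet, and NZO/HlLtJ and C57BL/6J overlapped on both diets. The log2 difference of CAST/EiJ from C57BL/6J was 0.55 ± 0.10 on the control diet (edgeR adjusted p = 1.7e-05), and that of NZO/HlLtJ from CAST/EiJ was -0.69 ± 0.10 (adjusted p = 9.5e-07).

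Nuclear members of complexes III, IV and V were higher in NZO/HlLtJ than in C57BL/6J nearly throughout. On the control diet edgeR called 8 of 8 complex III subunits higher with a median log2 difference of 0.33, 10 of 11 complex IV subunits (median 0.36) and 12 of 15 complex V subunits (median 0.33), with 0 lower in each. Of 36 complex I subunits 23 were higher and 2 lower (median 0.23), the latter Ndufa7 at -0.25 and Ndufc2 at -0.20. Complex II, whose genes are all nuclear, had 1 of 4 higher: Sdhb was higher by 0.36 ± 0.07 (adjusted p = 0.00012), while Sdha, Sdhc and Sdhd differed by -0.04, 0.06 and 0.07 on the log2 scale without passing. On the high-fat diet the counts were 8 of 8, 10 of 11, 13 of 15 and 24 of 36 higher, with 2 complex I subunits lower (Ndufa7 and Ndufs1) and with Sdha lower, at -0.37 ± 0.06 (adjusted p = 3.4e-06).

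**Figure D4:**
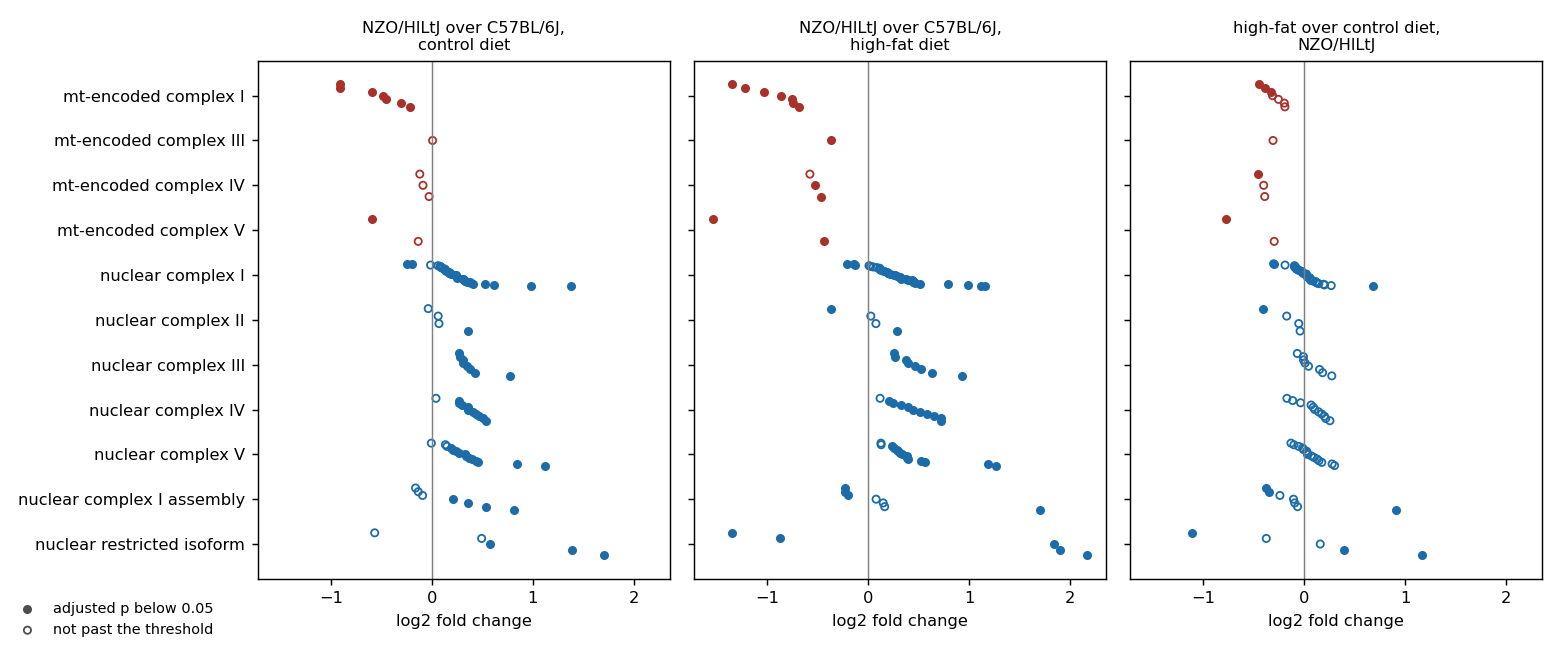
Log2 differences of each member, by complex and genome, for NZO/HlLtJ against C57BL/6J on the control diet, the same on the high-fat diet, and high-fat against control diet in NZO/HlLtJ. Filled points passed an edgeR adjusted p of 0.05; mitochondrial points lie left of 0 except mt-Cytb at 0.01 on the control diet, most nuclear points lie right of 0 in the strain panels (medians 0.27 and 0.29), and Cox7a2l, Atp5s and Atp5sl are not drawn.

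Single nuclear subunits of complexes I and V differed more than the class medians. Ndufa12, an accessory subunit of the matrix arm, stood in NZO/HlLtJ at 45.9, 44.2, 41 and 48.1 CPM in control females, 41.6, 42.5 and 53.7 in control males, 46.7, 55.6, 49.3 and 52.8 in high-fat females, and 42.9, 41.9 and 37.9 in high-fat males. Its C57BL/6J values were 23.8, 22.8, 25.2 and 21.1 CPM in control females, 22.5, 22.8, 21.4 and 24.1 in control males, 25.7, 25.6, 27.6 and 19.6 in high-fat females, and 23, 23.1, 20.2 and 20.1 in high-fat males. Its CAST/EiJ values were 23.2, 23.4, 27.7 and 29.6 CPM in control females, 24.3, 26.7 and 20.5 in control males, 22.9, 22.3, 25.7 and 23.4 in high-fat females, and 24.5, 28.6, 24 and 23 in high-fat males. Every NZO/HlLtJ library was above every library of the other strains. The log2 difference on the control diet was 0.98 ± 0.07 from C57BL/6J (edgeR adjusted p = 1.2e-13) and 0.86 ± 0.07 from CAST/EiJ.

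Atp5g1 encodes the same c subunit as Atp5g2 and Atp5g3 with another import signal. NZO/HlLtJ had Atp5g1 at 99.1, 79.9, 74.2 and 112 CPM in control females, 96.3, 101 and 146 in control males, 107, 162, 122 and 111 in high-fat females, and 108, 102 and 89.4 in high-fat males. C57BL/6J had it at 45.2, 49.1, 60.9 and 47.1 CPM in control females, 41.2, 38.1, 46.7 and 51 in control males, 45.3, 57.3, 56.5 and 42.1 in high-fat females, and 45.1, 46.2, 39.1 and 45.6 in high-fat males. CAST/EiJ had it at 55.4, 46.1, 67.3 and 76.8 CPM in control females, 53.5, 57.3 and 41.8 in control males, 48.1, 50.6, 54.8 and 48.3 in high-fat females, and 43.7, 61.8, 49.8 and 46.8 in high-fat males. NZO/HlLtJ was above C57BL/6J without overlap, and CAST/EiJ control female 4 alone reached the lowest NZO/HlLtJ control value. Relative to C57BL/6J it differed on the log2 scale by 1.12 ± 0.12 on the control diet (edgeR adjusted p = 7.2e-10) and 1.26 ± 0.12 on the high-fat diet (adjusted p = 2.1e-11). Atp5g3 was higher by 0.44 ± 0.07 (adjusted p = 1.5e-06) on the control diet, and Atp5g2 did not pass there (adjusted p = 0.98).

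Atp5o encodes the stalk subunit that confers sensitivity to oligomycin. Of its 31-base words 49.6% occur in other annotated transcripts, just below the 50% that marks uncertain members. Of its exon bases 18.1% lie under Gm15976 on the opposite strand. NZO/HlLtJ values of Atp5o were 60.5, 61.2, 54 and 64.9 CPM in control females, 61.3, 61.3 and 99.4 in control males, 73.8, 96.9, 82.3 and 80.7 in high-fat females, and 73.5, 83.9 and 83.8 in high-fat males. C57BL/6J values were 33.1, 34.8, 43 and 48.7 CPM in control females, 32.3, 36.7, 38.4 and 33.9 in control males, 35.8, 39.9, 40.5 and 36.1 in high-fat females, and 39.9, 33.9, 31.4 and 32.3 in high-fat males. CAST/EiJ values were 48.4, 42.1, 54.1 and 81.1 CPM in control females, 47.9, 46.5 and 40.2 in control males, 41.2, 46, 47.7 and 44 in high-fat females, and 44.2, 56.6, 43.8 and 41.6 in high-fat males. NZO/HlLtJ lay above C57BL/6J on both diets and above CAST/EiJ on the high-fat diet without overlap. The log2 difference from C57BL/6J was 0.84 ± 0.11 on the control diet (edgeR adjusted p = 9.7e-08) and 1.19 ± 0.11 on the high-fat diet (adjusted p = 1.9e-11).

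Against CAST/EiJ, which shares the NZO/HlLtJ samples with the comparison above, the same split by genome was seen in the counts. With control feeding edgeR called 8 of 13 mitochondrial members lower in NZO/HlLtJ and 1 higher, and 35 of 89 nuclear members higher and 11 lower, against 27.6% higher and 26.6% lower among all genes. Shares of nuclear members were 39.3% higher and 12.4% lower. Medians were -0.39 for mitochondrial members, 0.12 for nuclear members and -0.01 for all genes. On the high-fat diet 11 mitochondrial members were lower and 1 higher, and 58 nuclear members were higher and 10 lower, against 36.0% and 34.8% of all genes. The medians were -0.82, 0.26 and 0.00. The mitochondrial member called higher was mt-Co2 on both diets, by 7.78 ± 0.39 and 5.80 on the log2 scale. With the counts of copies added the values were 0.34 (adjusted p = 0.012) and -0.30 (adjusted p = 0.014).

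CAST/EiJ against C57BL/6J, which shares groups with the comparisons above, differed less by genome. On the control diet 4 mitochondrial members were higher and 2 lower, and 46 nuclear members were higher and 7 lower, against 24.6% higher and 23.9% lower among all genes. On the high-fat diet 5 and 2 mitochondrial members and 28 and 9 nuclear members were higher and lower, against 24.5% and 25.1%. Nuclear medians were 0.17 and 0.08, and mitochondrial medians 0.01 and 0.08. The share of nuclear members called higher was thus 51.7% on the control diet and 31.5%, nearer the background, on the high-fat diet. By complex on the control diet, 10 of 11 complex IV, 6 of 8 complex III, 9 of 15 complex V and 16 of 36 complex I subunits were higher.

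mt-Co2, which carries the copper site of complex IV that takes electrons from cytochrome c, showed what the split of counts does. In CAST/EiJ libraries mt-Co2 stood at 5.97, 4.19, 8.0 and 5.31 CPM in control females, 4.59, 2.68 and 3.13 in control males, 136, 32.2, 3.97 and 39.1 in high-fat females, and 5.71, 3.13, 2.81 and 2.68 in high-fat males. In C57BL/6J libraries it stood at 1196, 927, 802 and 1015 CPM in control females, 1401, 904, 1041 and 1038 in control males, 1239, 823, 943 and 911 in high-fat females, and 1018, 1033, 1081 and 1362 in high-fat males. In NZO/HlLtJ libraries it stood at 1040.2, 1221, 901 and 700.0 CPM in control females, 1479, 1136 and 795 in control males, 859, 819, 580.0 and 801 in high-fat females, and 884, 656 and 698 in high-fat males. CAST/EiJ lay below both strains without overlap, and 3 of its 4 high-fat females were above the rest of that strain. These 3, high-fat females 1, 2 and 4, held 7.33%, 2.13% and 2.19% of the counts of the mt-Co2 pair. In the Atp5g2 pair the gene held 89.1%, 95.6% and 96.9% in the same libraries, less than in the rest of CAST/EiJ. Both shifts were toward the other strains, and their cause was not tested. CAST/EiJ high-fat contrasts include these libraries. The log2 difference of CAST/EiJ from C57BL/6J on the control diet was -7.90 ± 0.39 (edgeR adjusted p = 6.5e-19) for the gene alone and -0.40 with copies added. On the high-fat diet it was -6.38 alone and -0.28 with copies added (adjusted p = 0.023).

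Atp5g2 was the nuclear counterpart. CAST/EiJ libraries held Atp5g2 at 73.7, 75, 97.6 and 84.2 CPM in control females, 80.2, 71.6 and 64.6 in control males, 59.9, 65.8, 79.8 and 69.4 in high-fat females, and 66.8, 79.8, 73.1 and 61.3 in high-fat males. C57BL/6J libraries held Atp5g2 at 5.86, 3.17, 4.03 and 3.54 CPM in control females, 6.07, 4.89, 5.51 and 5.79 in control males, 6.45, 4.56, 4.7 and 4.41 in high-fat females, and 5.05, 5.32, 4.34 and 3.66 in high-fat males. NZO/HlLtJ libraries held Atp5g2 at 4.78, 3.82, 6.06 and 4.73 CPM in control females, 4.89, 3.2 and 6.38 in control males, 6.08, 6.79, 7.16 and 4.36 in high-fat females, and 5.58, 6.75 and 5.22 in high-fat males. CAST/EiJ lay above both other strains without overlap. The log2 difference of CAST/EiJ from C57BL/6J was 4.01 ± 0.14 on the control diet (edgeR adjusted p = 5.5e-23) for the gene alone and 0.17 with copies added (adjusted p = 0.036), and on the high-fat diet 3.85 and 0.07 (adjusted p = 0.39). Between NZO/HlLtJ and CAST/EiJ it was -4.01 alone and -0.06 with copies added (adjusted p = 0.47) on the control diet, and 0.16 with copies added on the high-fat diet (adjusted p = 0.036). The sources used here do not give how reads of each strain were aligned, and the part of alignment in these values was not tested.

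Other nuclear members were lower or higher in CAST/EiJ. Cox7a2l stood in CAST/EiJ at 114, 130.2, 123 and 116 CPM in control females, 107, 100.4 and 97.9 in control males, 119, 108, 123 and 110.4 in high-fat females, and 98.8, 108, 109 and 95.3 in high-fat males. C57BL/6J samples had Cox7a2l values of 186, 195, 178 and 162 CPM in control females, 194, 215, 178 and 147 in control males, 213, 176, 195 and 146 in high-fat females, and 156, 159, 145 and 152 in high-fat males. NZO/HlLtJ samples had Cox7a2l values of 140.1, 139, 147 and 150.4 CPM in control females, 124, 157 and 179 in control males, 133, 165, 161 and 196 in high-fat females, and 138, 165 and 127 in high-fat males. CAST/EiJ was below C57BL/6J without overlap, and NZO/HlLtJ lay between and overlapped both on the control diet. Relative to C57BL/6J the control-diet difference in log2 units was -0.70 ± 0.08 for CAST/EiJ (edgeR adjusted p = 3.6e-09) and -0.28 ± 0.08 for NZO/HlLtJ (adjusted p = 0.0047). Without NZO/HlLtJ control male 1 the latter was -0.18 (adjusted p = 0.075).

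Sdhd, the smaller membrane anchor of complex II, was lower in CAST/EiJ, at 51.4, 50.7, 63.7 and 59.6 CPM in control females, 56.6, 57 and 51.3 in control males, 48.3, 51, 52.9 and 47.1 in high-fat females, and 47.7, 51.8, 56.5 and 57.3 in high-fat males. C57BL/6J values of Sdhd were 73.8, 74, 72.5 and 71.3 CPM in control females, 76.1, 69.8, 82.8 and 77.6 in control males, 82.6, 68.5, 78.8 and 62.9 in high-fat females, and 64.6, 71.7, 74.2 and 72.7 in high-fat males. NZO/HlLtJ values of Sdhd were 86.5, 83.1, 78.7 and 81.2 CPM in control females, 69, 77.3 and 78.8 in control males, 76.7, 85.5, 65.8 and 79.9 in high-fat females, and 72.8, 80.5 and 70.7 in high-fat males. CAST/EiJ overlapped neither strain on either diet. The log2 difference from C57BL/6J was -0.43 ± 0.06 on the control diet (edgeR adjusted p = 4.8e-07), and the other anchor, Sdhc, was lower, at -0.23 ± 0.07 (adjusted p = 0.0068), and at -0.16 (adjusted p = 0.069) without CAST/EiJ control male 3.

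Ndufa6, an accessory subunit of the LYR family in complex I, stood in CAST/EiJ at 29.7, 29.3, 36.3 and 35.5 CPM in control females, 24.5, 25.7 and 23.7 in control males, 24.6, 26.6, 27.7 and 26.5 in high-fat females, and 22.6, 29.7, 25.4 and 22.5 in high-fat males. Its C57BL/6J samples gave 37.1, 38.9, 43.3 and 40.8 CPM in control females, 36.9, 47.9, 39.8 and 35.9 in control males, 47.9, 36.6, 42.6 and 35 in high-fat females, and 40.7, 34.5, 33 and 33.7 in high-fat males. Its NZO/HlLtJ samples gave 40.3, 40.2, 39.9 and 42 CPM in control females, 34.2, 38.1 and 42.9 in control males, 38.8, 42.4, 38.5 and 47.8 in high-fat females, and 37.3, 41.4 and 42.2 in high-fat males. Only CAST/EiJ control female 3 reached the C57BL/6J control range, and on the high-fat diet there was no overlap. Relative to C57BL/6J it differed on the log2 scale by -0.49 ± 0.07 on the control diet (edgeR adjusted p = 7.9e-07).

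Uqcr11, a small subunit of complex III, was higher instead, in CAST/EiJ at 54.5, 47.5, 71.9 and 64.2 CPM in control females, 52.5, 49.3 and 43.7 in control males, 40.6, 42, 45.5 and 49.6 in high-fat females, and 42.9, 55.9, 45.8 and 40.7 in high-fat males. C57BL/6J libraries gave Uqcr11 values of 35, 34.7, 38.1 and 36.6 CPM in control females, 34.3, 38.8, 39 and 39.8 in control males, 39.6, 36.1, 41.1 and 37.3 in high-fat females, and 37.3, 35.3, 34.3 and 34.4 in high-fat males. NZO/HlLtJ libraries gave Uqcr11 values of 44.5, 43.6, 39.9 and 51.1 CPM in control females, 41.7, 45.4 and 66.6 in control males, 52.7, 61.8, 51.2 and 55.8 in high-fat females, and 51, 51.9 and 48.4 in high-fat males. With control feeding CAST/EiJ was above C57BL/6J without overlap, by 0.54 ± 0.08 on the log2 scale (edgeR adjusted p = 1.4e-06). On the high-fat diet their ranges overlapped.

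Atp5s, a coupling factor of the ATP synthase, stood in CAST/EiJ at 5.26, 4.79, 4.23 and 4.19 CPM in control females, 5.86, 5.2 and 4.12 in control males, 4.7, 4.13, 4.42 and 4.31 in high-fat females, and 5.2, 4.08, 4.93 and 5.22 in high-fat males. C57BL/6J had Atp5s at 7.59, 6.22, 7.47 and 5.8 CPM in control females, 7.85, 5.5, 6.36 and 5.97 in control males, 6.96, 6.62, 6.64 and 5.91 in high-fat females, and 5.21, 5.98, 6.22 and 7.27 in high-fat males. NZO/HlLtJ had Atp5s at 6.32, 5.3, 6.28 and 4.54 CPM in control females, 5.55, 6.4 and 3.83 in control males, 5.03, 4.5, 3.47 and 4.99 in high-fat females, and 3.98, 3.49 and 2.96 in high-fat males. Ranges overlapped between all strains on the control diet. The log2 difference of CAST/EiJ from C57BL/6J was -0.45 ± 0.10 on the control diet (edgeR adjusted p = 0.0004).

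In NZO/HlLtJ the number of members called for the high-fat diet changed with single libraries: 15 were called in all, and 7 to 36 on leaving out 1 library, with 7 without control female 3, control male 1 or control male 2 and 36 without control male 3. Shares of all genes called in those fits are not given here, so this change is not read as particular to the members. With all libraries, edgeR called 5 of 13 mitochondrial members lower and 0 higher, with 11 at an unadjusted p under 0.05, and 4 of 89 nuclear members higher and 6 lower. Among all genes, 17.5% were called higher and 15.3% lower. The nuclear shares of 4.49% and 6.74% were thus below the background, and the mitochondrial share called lower was 38.5%. Medians of the log2 difference were -0.33 for mitochondrial members, 0.02 for nuclear members and -0.02 for all genes. Of 8 complex III, 11 complex IV and 15 complex V nuclear subunits 0 passed, with 1, 2 and 1 at an unadjusted p under 0.05. DESeq2 called 7 members higher and 17 lower, and limma on the deposited log2 values called 8 and 8, with the shares of all genes not given here.

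The mitochondrial members that fell were mt-Co2 at -0.46 ± 0.13 (edgeR adjusted p = 0.019), mt-Nd5 at -0.45 ± 0.13 (adjusted p = 0.020), mt-Nd6 at -0.39 ± 0.11 (adjusted p = 0.019), mt-Nd2 at -0.33 ± 0.11 (adjusted p = 0.032) and mt-Atp8 at -0.78 ± 0.28 (adjusted p = 0.049). The other 8 had log2 differences from -0.19 (mt-Nd1, adjusted p = 0.17) to -0.40 (mt-Co3, adjusted p = 0.051), all below 0. High-fat and control libraries overlapped for every one of the 5: control male 3 and control females 3 and 4 lay inside the high-fat range of mt-Nd2 and mt-Nd5, and control female 1 inside that of mt-Nd5. Within the 3 number ranges the difference of mean log2 CPM was -0.53, -0.23 and -0.48 for mt-Co2, -0.41, -0.45 and -0.35 for mt-Nd5, -0.32, -0.41 and -0.29 for mt-Nd6, -0.35, -0.24 and -0.24 for mt-Nd2 and -0.76, -0.75 and -0.52 for mt-Atp8. Leaving out 1 of the 14 libraries in turn ended the call in 3 cases for mt-Nd6, 4 for mt-Co2, 5 for mt-Nd5, 8 for mt-Nd2 and 12 for mt-Atp8, and mt-Atp8 was at -0.38 without control male 2.

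The nuclear members that fell were single genes: Sdha of complex II, Ndufs1 of complex I, the assembly factors Ndufaf4 and Ndufaf5, Atp5s and Cox6a2. Another assembly factor, Ndufaf2, rose. Sdha, the subunit that oxidises succinate, spanned 179 to 237 CPM with a median of 223 in control and 132 to 198 CPM with a median of 168 in high-fat libraries. The groups overlapped, and the log2 difference was -0.41 ± 0.07 (edgeR adjusted p = 0.0024). Ndufs1, the largest subunit of complex I, fell by 0.30 ± 0.07 (adjusted p = 0.0098). The assembly factors Ndufaf4 and Ndufaf5 fell, with log2 differences of -0.35 ± 0.08 (adjusted p = 0.0062) and -0.38 ± 0.09 (adjusted p = 0.0096), and Atp5s fell by 0.46 ± 0.15 (adjusted p = 0.033). In the 3 number ranges Sdha differed by -0.32, -0.73 and -0.16, Ndufs1 by -0.20, -0.70 and 0.04, and Ndufaf4 by -0.38, -0.75 and 0.06.

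Cox6a2 fell most. It encodes the heart and muscle isoform of a regulatory subunit of complex IV. Cox6a2 stood in NZO/HlLtJ at 16.4, 16.7, 22.8 and 14.4 CPM in control females, 17.3, 9.66 and 9.09 in control males, 17.4, 13.5, 9.73 and 12.3 in high-fat females, and 3.7, 4.1 and 3.11 in high-fat males. C57BL/6J libraries had Cox6a2 at 9.62, 7.49, 8.56 and 8.43 CPM in control females, 12.6, 9.25, 11.8 and 8.88 in control males, 7.61, 10.4, 12.8 and 13.3 in high-fat females, and 13.7, 17, 9.18 and 15 in high-fat males. CAST/EiJ libraries had Cox6a2 at 38.9, 38.9, 35.6 and 25.4 CPM in control females, 48, 36.2 and 25.9 in control males, 31.6, 32.9, 48 and 43.4 in high-fat females, and 39.3, 46.8, 41.9 and 35.9 in high-fat males. The 3 NZO/HlLtJ high-fat males were below every other library of the study, the high-fat females overlapped the control females and males, and every CAST/EiJ library was above every other strain. The log2 difference between diets in NZO/HlLtJ was -1.11 ± 0.13 (edgeR adjusted p = 0.0011). It was -2.14 ± 0.26 in males (adjusted p = 0.0083) and -0.08 ± 0.21 in females (adjusted p = 0.89). The difference between the sexes, -2.06, did not pass (adjusted p = 0.10). The call in males was lost without control male 1, at -1.89 (adjusted p = 0.15).

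Number range touched this result too. The differences of mean log2 CPM of Cox6a2 in NZO/HlLtJ were -0.82, -2.34 and 0.22 in the 3 ranges, and the third held only control males and high-fat females. Its exons overlap Itgad on the opposite strand over 10.3% of their bases. The muscle genes on the list summed to 46.8 to 105 CPM in NZO/HlLtJ control and 60.6 to 162 CPM in high-fat libraries, and their part in the Cox6a2 values was not tested. Cox6a2 was also higher in CAST/EiJ than in C57BL/6J, by 1.90 ± 0.15 on the control diet (edgeR adjusted p = 4e-13). Against C57BL/6J, NZO/HlLtJ was higher on the control diet by 0.58 ± 0.15 (adjusted p = 0.002) and lower on the high-fat diet, at -0.87 ± 0.15 (adjusted p = 8.5e-06).

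Members that rose in NZO/HlLtJ were Ndufaf2, Ndufa1, Ndufa4l2 and Cox6b2. Ndufaf2 is an assembly factor that stands in for Ndufa12 in late complex I intermediates. Ndufaf2 stood in NZO/HlLtJ at 6.11, 5.55, 4.4 and 5.5 CPM in control females, 5.32, 7.23 and 16 in control males, 4.98, 12.7, 9.82 and 9.87 in high-fat females, and 21.4, 17.2 and 12.6 in high-fat males. Ndufaf2 stood in C57BL/6J at 4.56, 3.48, 4.05 and 3.42 CPM in control females, 4.46, 4.79, 3.66 and 4.11 in control males, 3.94, 4.05, 4.05 and 3.4 in high-fat females, and 4.15, 3.69, 4.2 and 3.3 in high-fat males. In CAST/EiJ it stood at 3.62, 3.0, 2.71 and 2.65 CPM in control females, 3.31, 3.54 and 2.83 in control males, 3.21, 3.45, 3.36 and 2.88 in high-fat females, and 3.04, 3.72, 2.87 and 2.87 in high-fat males. Control male 3 and the high-fat libraries other than high-fat female 1 were the high ones in NZO/HlLtJ, so the diets overlapped. The log2 difference between diets was 0.91 ± 0.23 (edgeR adjusted p = 0.012), and without control male 1 it was 0.73 (adjusted p = 0.066). By number range it was 0.97, 1.58 and -0.13.

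Ndufa1 stood in NZO/HlLtJ at 41.6, 40.5, 34.6 and 46.2 CPM in control females, 44.6, 48.1 and 99.1 in control males, 54, 104, 85.3 and 82.4 in high-fat females, and 88.1, 80.5 and 62.6 in high-fat males. C57BL/6J had Ndufa1 at 34.1, 32, 38 and 32.5 CPM in control females, 35.5, 37.3, 36.7 and 35.1 in control males, 41.9, 33, 37.3 and 30.4 in high-fat females, and 39, 34.3, 29.7 and 38 in high-fat males. CAST/EiJ had Ndufa1 at 45.8, 36.9, 58.6 and 47.7 CPM in control females, 45.9, 42.6 and 27 in control males, 38.6, 37.4, 40.7 and 37.2 in high-fat females, and 37.2, 45.4, 36 and 34.7 in high-fat males. Control male 3 again lay among the high-fat libraries, and all NZO/HlLtJ high-fat libraries were above all high-fat libraries of both other strains. The log2 difference between diets was 0.68 ± 0.18 (edgeR adjusted p = 0.015), with 0.90, 0.83 and 0.28 in the 3 number ranges. Without control male 1 it was 0.56 (adjusted p = 0.079), and the call was also lost without high-fat male 1.

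Ndufa4l2, a paralog of the complex IV subunit Ndufa4 that hypoxia induces, stood in NZO/HlLtJ at 9.06, 7.5, 6.16 and 8.32 CPM in control females, 9.54, 8.19 and 13.8 in control males, 8.18, 10.8, 12.6 and 10.8 in high-fat females, and 13.2, 12.2 and 12.8 in high-fat males. C57BL/6J gave Ndufa4l2 values of 4.22, 3.89, 3.3 and 3.81 CPM in control females, 3.01, 3.26, 3.1 and 3.0 in control males, 3.56, 2.82, 3.31 and 3.67 in high-fat females, and 3.42, 3.1, 3.15 and 2.91 in high-fat males. CAST/EiJ gave Ndufa4l2 values of 4.04, 4.32, 4.94 and 3.5 CPM in control females, 6.02, 5.88 and 4.56 in control males, 3.9, 3.86, 4.2 and 4.92 in high-fat females, and 4.74, 5.18, 5.14 and 4.74 in high-fat males. Every NZO/HlLtJ library was above every library of the other strains, and the diets overlapped. The log2 difference between diets in NZO/HlLtJ was 0.39 ± 0.13 (edgeR adjusted p = 0.034), a call lost in 9 of 14 cases on leaving out a library. Against C57BL/6J it was 1.39 ± 0.10 on the control diet (adjusted p = 3.1e-13) and 1.84 ± 0.10 on the high-fat diet (adjusted p = 1.4e-16).

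**Figure D5:**
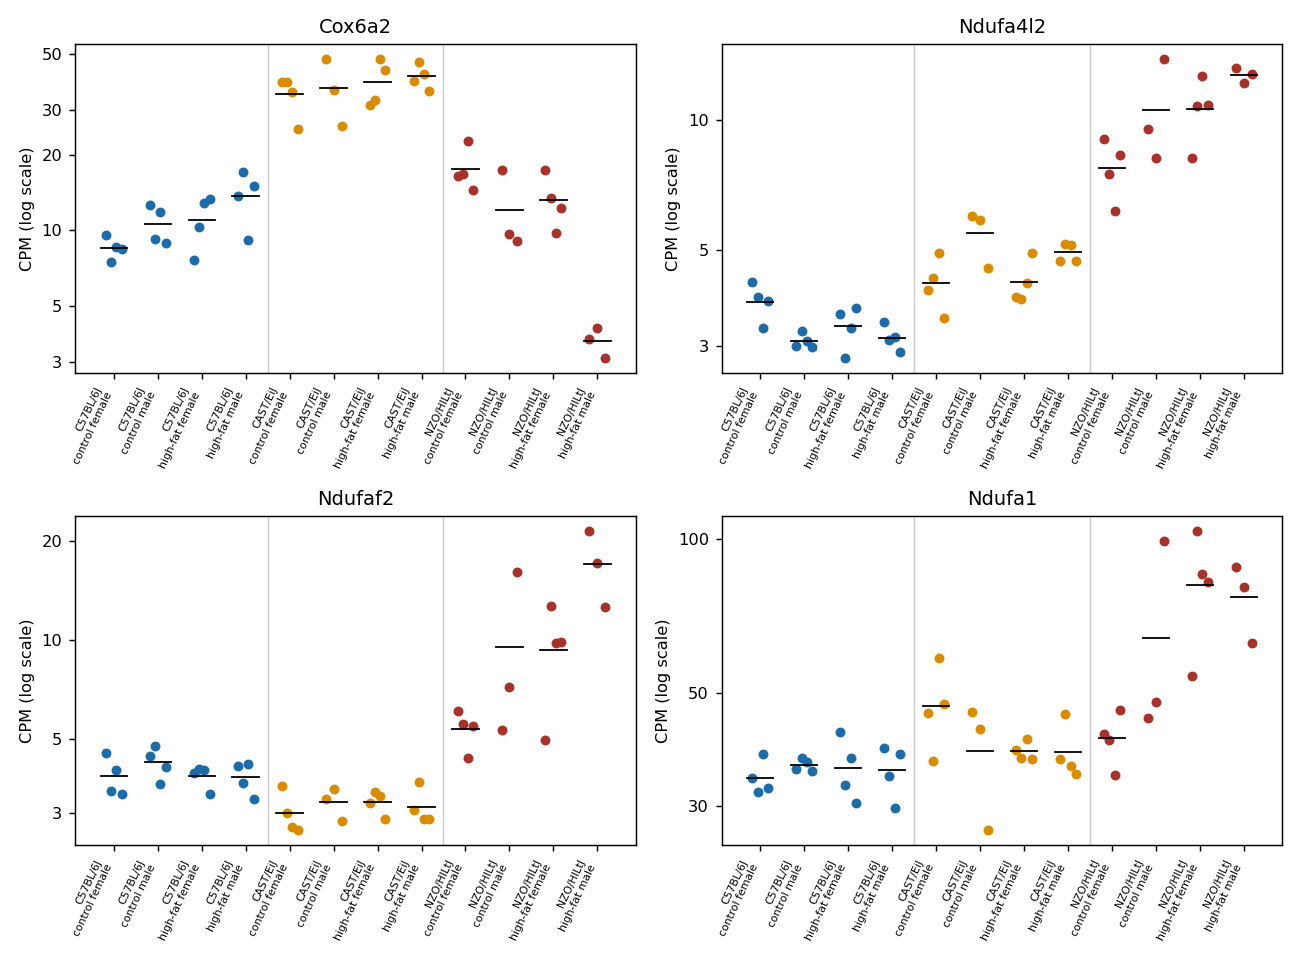
CPM on a log axis of Cox6a2, Ndufa4l2, Ndufaf2 and Ndufa1 in each library of the 12 groups, with lines at group means. NZO/HlLtJ high-fat males lie at 3.11 to 4.10 CPM of Cox6a2, below every other library, and every NZO/HlLtJ library is above the other strains for Ndufa4l2.

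Other cell types moved with diet in NZO/HlLtJ, beside all of these calls. Of 30 acinar genes 25 rose (median log2 difference 1.37), as did 12 of 12 macrophage and lymphocyte genes (1.98), 10 of 10 stellate cell and fibroblast genes (1.41), 5 of 6 duct genes (1.59), 10 of 10 cell cycle genes (1.52), 3 of 6 endothelial genes with 1 lower (0.28), 1 of 2 adipocyte genes (1.00) and 1 of 5 muscle genes (0.65). Of 19 beta cell genes 12 fell and 0 rose (median -0.65), and of 10 alpha, delta and PP cell genes 2 rose and 1 fell. Macrophage and lymphocyte genes summed to 25.5 to 138 CPM in control and 63.3 to 712 CPM in high-fat libraries. With a score of the acinar genes as a covariate edgeR called 0 of 18517 genes, with 2696 at an unadjusted p under 0.05, and so 0 of these members, with 12 at an unadjusted p under 0.05. Effect sizes under it were -1.19 for Cox6a2 (adjusted p = 0.29), 1.18 for Ndufaf2, 0.86 for Ndufa1 (adjusted p = 0.31) and -0.33 for Sdha (adjusted p = 0.32). Without the library above 20% acinar counts 3 members rose and 9 fell, with the shares of all genes in that fit not given here. The part of cell composition in the diet calls was not tested further.

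By sex, edgeR called 0 of 102 members in NZO/HlLtJ females, where 0.0162% of all genes were called, with 8 members and 15.5% of genes at an unadjusted p under 0.05. DESeq2 called 0 members there, against 3.48% of genes, and limma 0. In males 2 nuclear members fell and 0 rose, against 8.75% higher and 4.86% lower among all genes. Cox6a2, described above, was among them. The sex difference of the diet effect gave 0 members by edgeR against 0.0108% of genes, with 2 members and 11.9% of genes at an unadjusted p under 0.05, 1 member by DESeq2 (2.23% of genes) and 0 by limma. Calls in 1 sex are thus not shown to differ between sexes.

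Diet effects in the other strains stayed below the threshold. In C57BL/6J edgeR called 0 members and 0% of all genes, with 3 members and 7.22% of genes at an unadjusted p under 0.05. DESeq2 and limma called 0 members there, and DESeq2 called 0.412% of genes. In CAST/EiJ edgeR called 0 members and 0% of genes, with 13 members and 6.91% of genes at an unadjusted p under 0.05. DESeq2 (0.252% of genes) and limma called 0 members. Mitochondrial and nuclear medians were 0.08 and -0.02 in C57BL/6J and 0.11 and -0.13 in CAST/EiJ.

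The difference of the diet effect between strains was tested directly. Against C57BL/6J, the diet effect in NZO/HlLtJ was lower for 8 mitochondrial members and for 5 nuclear members and higher for 3, against 9.65% of genes higher and 10.7% lower. The nuclear shares were 3.37% higher and 5.62% lower, below the background, and 61.5% of mitochondrial members were lower. The mitochondrial members were mt-Nd2 (-0.43), mt-Nd4 (-0.38), mt-Nd5 (-0.55), mt-Nd6 (-0.53), mt-Cytb (-0.37), mt-Co1 (-0.44), mt-Co3 (-0.44) and mt-Atp8 (-0.95). On leaving out each of the 45 libraries the call was lost in 28 cases for mt-Co3, 19 for mt-Co1, 18 for mt-Nd4, 15 for mt-Cytb, 5 for mt-Atp8, with -0.49 without NZO/HlLtJ control male 2, and 1 for mt-Nd2. Cox6a2 had the most negative value, -1.45 ± 0.21 (edgeR adjusted p = 4.1e-05), and Ndufaf5, Sdha, Atp5s and Ndufs1 were lower too. Ndufaf2 at 0.89 (adjusted p = 0.0071), Ndufa1 at 0.62 (adjusted p = 0.022) and Ndufa4l2 at 0.45 (adjusted p = 0.025) were higher.

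Against CAST/EiJ, with the same NZO/HlLtJ samples, 8 mitochondrial members were lower and 0 higher, and 19 nuclear members were higher and 6 lower, against 12.6% and 13.8% of all genes. Higher calls covered 21.3% of nuclear members. They included 6 complex I, 4 complex IV, 3 complex III and 3 complex V subunits, such as Uqcrq at 0.42, Atp5o at 0.44, Ndufa4 at 0.31 and Cox4i1 at 0.27. On leaving out each library these 4 calls were lost in 9, 10, 15 and 18 of 45 cases. Cox6a2 was at -1.22 ± 0.22 (edgeR adjusted p = 0.00015), and mt-Co1, mt-Nd5 and mt-Nd6 at -0.49, -0.55 and -0.47. Medians of the difference were -0.45 for mitochondrial members, 0.13 for nuclear members and -0.02 for all genes. With the acinar score as a covariate 10 members were higher and 12 lower against CAST/EiJ, and 3 and 7 against C57BL/6J. Shares of all genes under that covariate are not given here, and the backgrounds above do not apply to these counts.

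Females and males on the control diet did not differ beyond the threshold in any strain by edgeR. In C57BL/6J it called 0 members and 0.0862% of genes, with 6 members and 11.0% of genes at an unadjusted p under 0.05. DESeq2 (1.50% of genes) and limma called 0 members. In CAST/EiJ edgeR called 0 members and 0.0596% of genes, with 13 members and 9.67% of genes at an unadjusted p under 0.05. DESeq2 called 2 members lower in males (1.00% of genes) and limma 0. In NZO/HlLtJ edgeR called 0 members and 0.0270% of genes, with 1 member and 8.16% of genes at an unadjusted p under 0.05. DESeq2 (0.871% of genes) and limma called 0 members.

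Isoforms of restricted expression were low next to their widely expressed counterparts. Cox6a2 had a mean of 29.9 CPM per kb against 115 for Cox6a1, Ndufa4l2 had 5.41 against 37.5 for Ndufa4, and Cox4i2, a lung isoform whose expression hypoxia raises, had 2.28 against 74.7 for Cox4i1. Cox7a1, the muscle isoform, had 0.360 against 51.2 for Cox7a2, and Cox6b2, the testis isoform, had 0.134 against 80.5 for Cox6b1. Cox7b and Cox8a, whose restricted partners were not analysed here, had 40.3 and 172 CPM per kb. The counterparts were higher in NZO/HlLtJ than in C57BL/6J on the control diet in every case named: Cox4i1 by 0.27, Cox6a1 by 0.54, Cox6b1 by 0.30, Cox7a2 by 0.36, Cox7b by 0.51, Cox8a by 0.36 and Ndufa4 by 0.43 on the log2 scale, each past the edgeR threshold.

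Cox4i2 spanned 0.748 to 1.31 CPM in C57BL/6J control and 2.41 to 4.07 CPM in NZO/HlLtJ control libraries, and 2.85 to 4.37 CPM in NZO/HlLtJ high-fat libraries. The strains did not overlap, and the log2 difference was 1.70 ± 0.14 (edgeR adjusted p = 6e-12) on the control and 1.90 ± 0.14 (adjusted p = 1.8e-13) on the high-fat diet. Cox7a1 was lower in NZO/HlLtJ on the high-fat diet, at -1.35 ± 0.37 (adjusted p = 0.0019), with at most 0.487 CPM in any library. Cox6b2, at most 0.738 CPM, rose with the high-fat diet in NZO/HlLtJ by 1.17 ± 0.33 (adjusted p = 0.019), a call lost in 4 of 14 cases on leaving out a library. Endothelial, fibroblast and muscle genes were higher in NZO/HlLtJ than C57BL/6J on the control diet in 6 of 6, 8 of 10 and 3 of 5 cases, and their part in these isoforms was not tested.

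Genes of neighbouring mitochondrial pathways were counted list by list. In NZO/HlLtJ on the high-fat diet 7 of 19 genes of the TCA cycle and pyruvate metabolism fell and 0 rose (median -0.12), against 17.5% higher and 15.3% lower among all genes. Pcx, pyruvate carboxylase, fell by 1.37 ± 0.20 (edgeR adjusted p = 0.0013), and Idh2 and Idh3a fell, with log2 differences of -0.35 and -0.34. Of 41 respiratory chain factors outside the symbol rule 8 fell and 1 rose, with Coa7, a complex IV assembly factor, at -0.41 and Cox19, a copper chaperone, at 0.24. Of 27 genes of mitochondrial DNA and RNA maintenance 5 fell and 0 rose. The shares that fell among these factors and maintenance genes were near the background. Lrpprc, which stabilises mitochondrial messenger RNAs, fell by 0.60 ± 0.13 (adjusted p = 0.0059), and Fastkd2 and Mterf3 were at -0.40 and -0.36.

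Of 13 regulators of mitochondrial biogenesis 3 fell and 0 rose: Esrrg at -0.67 ± 0.16 (edgeR adjusted p = 0.0092), Ppargc1b at -0.60 ± 0.18 (adjusted p = 0.022) and Hif1a at -0.29 ± 0.07 (adjusted p = 0.0094). Of 77 mitochondrial ribosome genes 2 rose and 5 fell (median 0.06), while 50 of 79 cytosolic ribosome genes rose and 0 fell (median 0.32). The background for these counts is again 17.5% higher and 15.3% lower. With the acinar score as a covariate 0 genes of all these lists passed, as for all genes. Between NZO/HlLtJ and C57BL/6J on the control diet the same lists gave 7 of 19 TCA cycle genes higher and 0 lower, 12 of 41 respiratory chain factors higher and 4 lower, 31 of 77 mitochondrial ribosome genes higher and 4 lower, 3 of 27 maintenance genes higher and 0 lower, and 4 of 13 regulators higher and 1 lower, against 22.7% higher and 20.3% lower among all genes. The share of maintenance genes called higher was below that background. Cyc1, the cytochrome c1 subunit of complex III, was higher by 0.41 ± 0.06 (adjusted p = 2.9e-06). Cycs, the cytochrome c that carries electrons from complex III to complex IV, was higher by 0.57 ± 0.11 (adjusted p = 5.3e-05). Lyrm7, a chaperone of the iron-sulfur protein of complex III, was higher by 1.41 ± 0.08 (adjusted p = 2.4e-16).

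Promoters were examined because nuclear members were higher together in NZO/HlLtJ. RefSeq windows from 250 bases before to 50 after the start (GRCm38.p6) matched 73 of the 90 nuclear members and 13533 of 20280 genes. The NRF1 motif, GCGC, any 2 bases and GCGC again, was found on either strand in 28.8% of member windows and 12.6% of all windows. The YY1 motif AAGATGGCG was in 11.0% and 2.79%, and the GABPA motif CCGGAAG in 23.3% and 16.6%. The CCAAT box was in 43.8% and 42.2%, and CAGCTG in 6.85% and 18.8%. NRF1 and GABPA letters were found together in Atp5h, Atp5k, Cox6a1 and Sdhd. A match describes letters in a window and is not a binding site.

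The 200 bases upstream of the start are shown for 3 members on the minus strand: Cox6a1, higher in NZO/HlLtJ by 0.54 and 0.73 on the 2 diets, with NRF1, CCAAT and GABPA letters; Sdha, which fell with the high-fat diet there, with 3 NRF1 matches; and Atp5g1, with CCAAT boxes only. Capitals mark motif matches on either strand. The windows are chr5:115348959-115349158, chr13:74350241-74350440 and chr11:96075632-96075831.

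Cox6a1: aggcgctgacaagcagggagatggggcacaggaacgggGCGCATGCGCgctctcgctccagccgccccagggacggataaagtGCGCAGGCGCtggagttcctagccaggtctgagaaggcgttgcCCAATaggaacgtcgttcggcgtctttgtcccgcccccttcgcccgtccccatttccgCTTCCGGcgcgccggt
Sdha: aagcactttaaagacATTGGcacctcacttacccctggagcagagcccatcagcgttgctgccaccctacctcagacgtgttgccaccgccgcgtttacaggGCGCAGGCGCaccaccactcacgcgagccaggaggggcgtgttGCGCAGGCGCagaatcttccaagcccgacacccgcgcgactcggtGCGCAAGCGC
Atp5g1: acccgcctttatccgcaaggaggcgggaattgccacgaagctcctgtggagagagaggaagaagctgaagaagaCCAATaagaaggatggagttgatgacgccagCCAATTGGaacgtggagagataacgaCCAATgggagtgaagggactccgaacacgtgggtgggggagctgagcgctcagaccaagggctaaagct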

How the data were processed

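Islet RNA of 45 mouse samples was measured by polyadenylated RNA sequencing. The authors deposited expected counts per gene (80.6% of values lie within 1e-06 of a whole number) and variance-stabilised log2 values. GRCm38 and DESeq2 are named in the submitters' processing notes, while aligner, counter and strand setting were not given in the sources used here. Counts were rounded to whole numbers, and genes passing filterByExpr with a minimum count of 10 were tested with edgeR 4.0.16 (quasi-likelihood, TMM, R 4.3.3), with the number range of the label as a term in every fit and Benjamini-Hochberg adjustment over all genes at 0.05. Diet and sex were fitted within a strain and strain contrasts over all samples, averaged over sexes. CPM are counts scaled to TMM-scaled library totals.

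DESeq2 1.42.0, limma 3.58.1 on the deposited log2 values, other size factors, no low-count filter, no number range term, an acinar score as a covariate and leaving out each library were tried, and scripts were tested on simulated data. Adding the counts of 30 copies of 22 members and leaving out the libraries above 20% acinar counts were chosen after seeing the data. Replicates of a group differed beyond sampling noise (lowest chi-square per degree of freedom 59.1). Members, gene lists and tests were chosen with earlier results of these data known. Named are the 13 mitochondrial members, up to 5 members called in each direction with the largest difference at a mean log2 CPM of at least 1, the restricted isoforms with their counterparts, Cox7a2l, the complex II and Atp5g genes, and the highest and lowest member of each complex per length. Some members named for their strain-by-diet change or through a small count were chosen after their values were seen. Sequences and promoters come from GENCODE M21 and RefSeq. Some members and genes that these rules name are not reported here.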

Additional observations from a re-analysis of the deposited data

Results flagged for a closer look

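A library far from the others of its group was found for 5 of 207 groups of 4 libraries tested (Dixon's test), where chance flags about 1 in 20. Atp5g2 was at 6.45 CPM in C57BL/6J high-fat female 1, with the others at 4.41 to 4.70. Atp5g1 was at 39.1 CPM in C57BL/6J high-fat male 3, with the others at 45.1 to 46.2. Atp5o was at 56.6 CPM in CAST/EiJ high-fat male 2, one of the libraries above 20% acinar counts, with the others at 41.6 to 44.2. mt-Co2 was at 5.71 CPM in CAST/EiJ high-fat male 1, with the others at 2.68 to 3.13. The mitochondrial share was 1.52% in NZO/HlLtJ control female 4, with the others at 2.05% to 2.15%.

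The diet effect in NZO/HlLtJ differed from that in another strain by the edgeR test of the difference for the members that follow, as log2 values. Against C57BL/6J it was higher for Ndufaf2 at 0.89 (adjusted p = 0.0071), Ndufa1 at 0.62 (0.022) and Ndufa4l2 at 0.45 (0.025). It was lower for Cox6a2 at -1.45 (4.1e-05), mt-Atp8 at -0.95 (0.028), mt-Nd5 at -0.55 (0.0059), mt-Nd6 at -0.53 (0.0033) and Ndufaf5 at -0.45 (0.0098). Against CAST/EiJ it was higher for Ndufaf2 at 0.79 (0.014), Ndufa1 at 0.78 (0.0040), Atp5o at 0.44 (0.033), Ndufa4l2 at 0.43 (0.029) and Uqcrq at 0.42 (0.033). It was lower for mt-Co2 at -1.98 (0.00046), Cox6a2 at -1.22 (0.00015), mt-Nd5 at -0.55 (0.0047), mt-Co1 at -0.49 (0.021) and mt-Nd6 at -0.47 (0.0071). The mt-Co2 value is for the gene alone, which in CAST/EiJ held 0.151% to 7.33% of the counts of the pair with its copy, and was -0.64 with copies added (adjusted p = 0.0030). The highest of those shares were in CAST/EiJ high-fat females 1, 2 and 4. Both sets share the NZO/HlLtJ samples.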

How the results depend on the processing

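No paired analysis was possible because the labels give no replicate numbers. For diet in NZO/HlLtJ, 15 members were called, 24 by DESeq2 and 0 with the acinar score as a covariate, and 7 to 36 on leaving out 1 library (7 without control female 3, control male 1 or control male 2, 36 without control male 3). In NZO/HlLtJ males 2 members were called, 12 by DESeq2, 9 with no number range term, 0 with the acinar score and 0 to 9 on leaving out a library. In NZO/HlLtJ females 1 was called with no number range term. DESeq2 called 1 member for sex by diet in NZO/HlLtJ and 2 for sex in CAST/EiJ. For diet in CAST/EiJ, 1 was called without high-fat female 3 and 0 without any other library. For strain by diet, NZO/HlLtJ against C57BL/6J, 16 members were called, 9 with no number range term, 10 with the acinar score and 8 to 28 on leaving out a library. Against CAST/EiJ the range was 16 to 48, lowest without NZO/HlLtJ control male 1 and highest without control male 3. Shares of all genes called are not set beside the counts of this paragraph, so their changes are not read as particular to the members.

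Without uncertain members the log2 ratio of mitochondrial to nuclear counts was 0.84, 0.91, 0.91 and 1.12 in C57BL/6J control females, control males, high-fat females and high-fat males, 0.81, 1.01, 1.06 and 1.08 in CAST/EiJ and 0.18, 0.39, -0.012 and -0.037 in NZO/HlLtJ, since fewer mitochondrial genes enter the sum. With copies added it was 2.37, 2.45, 2.39 and 2.64 in the same groups of C57BL/6J. It was then 2.28, 2.47, 2.52 and 2.54 in CAST/EiJ and 1.88, 2.05, 1.60 and 1.63 in NZO/HlLtJ. With copies added, NZO/HlLtJ against CAST/EiJ on the high-fat diet reversed for Atp5g2 (0.16) and mt-Co2 (-0.30). Among 205 named results, the call was lost for 30 with the acinar score, 21 with no number range term, 16 without libraries above 20% acinar counts, 13 by limma, 7 with DESeq2 size factors, 3 with no filter, 3 with copies added and 2 by DESeq2. The causes were not tested.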
